A study of Homo sapiens with 8 samples.

Results

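The genes described here encode subunits and regulators of calcineurin, the calcium-dependent protein phosphatase that the immunosuppressants cyclosporin and tacrolimus block. They are the regulator genes RCAN1, RCAN2 and RCAN3, the catalytic subunit genes PPP3CA and PPP3CB, and the regulatory subunit gene PPP3R1. They are 6 of 19775 genes named on the array, a count that leaves out probe sets with several symbols. All probe sets that the platform annotation gives to exactly 1 of the 6 were taken, which are 14 of the 54675 in the table. There were 3 for RCAN1, 1 for RCAN2, 3 for RCAN3, 3 for PPP3CA, 2 for PPP3CB and 2 for PPP3R1. The genes were chosen by measured values of these same arrays, the differences between treated and control cells and above all those of RCAN1, so these differences are given as a description, with no p-values. The count of them past the threshold is given once beside its background, and nothing is read from it.

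The arrays came from 4 established human renal carcinoma lines, ACHN, CAKI2, A498 and CAKI1, all called clear cell lines by the submitters. Each line was exposed to 75 nM A939572 for 24 h on 1 array and to DMSO, the solvent, on the other, so each treatment has 4 arrays and the lines are the replicates. The drug blocks SCD1, a desaturase of the endoplasmic reticulum that turns saturated into monounsaturated fatty acids. All cells, treated and control, grew in DMEM with 5% FBS and antibiotics. Nothing in the labels says whether the 2 arrays of a line came from separate cultures, a line has no repeat of its own, and precision is limited by there being 8 arrays. Of the markers of kidney epithelium, PAX8, KRT8 and KRT18 had log2 levels of 10.45 or more on every array, and PAX2 ran from 5.88 to 9.49. The summed signal of the 3 leukocyte markers, PTPRC, CD14 and CD3E, ranged from 70.6 to 133.0 units on the DMSO arrays and from 30.1 to 136.4 on the treated ones, with none of the 3 above the filter on dim probe sets. In DMSO and in treated cells the sums were 163 to 489 and 143 to 327.5 units for 3 endothelial markers, and 198 to 1338.5 and 131 to 971 for 3 fibroblast markers, with 1 of 3 above the filter in each, PECAM1 and COL1A1.

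Calcineurin is an enzyme of a catalytic A subunit, encoded by PPP3CA or PPP3CB in most tissues, and a calcium-binding B subunit, encoded by PPP3R1. When cytosolic calcium rises, the enzyme becomes active and removes phosphate from NFAT transcription factors, which then enter the nucleus. RCAN proteins bind calcineurin and can restrain it. A short form of RCAN1 is transcribed from a start inside the gene that NFAT itself activates, which makes RCAN1 a feedback regulator and a common reporter of calcineurin activity, and oxidative and calcium stress are known to raise RCAN1 as well. In the kidney, calcineurin is known for the renal side effects of its inhibitors.

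The sequences before the annotated starts of RCAN1 are shown because RCAN1 had the largest differences of the 6 genes and because it has more than 1 promoter. Promoters were found in the RefSeq table (GRCh38.p14) for 4 of the 6 genes, in 13 windows of 250 bases before a start, of which 6 belong to RCAN1. PPP3CA and PPP3CB were not in the table. Capitals mark matches, on either strand, to GGAAA, the core of NFAT sites, to TGANTCA, the AP-1 site, or to TGACG, the first bases of a cyclic AMP response element. The first sequence lies at chr21:34615114-34615363, minus strand, before the outermost start. The second lies at chr21:34526823-34527072, minus strand, before the fourth start, which is inside the gene and had the most matches of the 13 windows. The third lies at chr2:68252533-68252782, minus strand, before the PPP3R1 start.
RCAN1 start 1: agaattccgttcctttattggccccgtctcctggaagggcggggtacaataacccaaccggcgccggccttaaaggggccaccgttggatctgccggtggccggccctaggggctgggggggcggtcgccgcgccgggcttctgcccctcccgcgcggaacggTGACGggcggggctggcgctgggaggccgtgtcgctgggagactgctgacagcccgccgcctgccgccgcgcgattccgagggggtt
RCAN1 start 4: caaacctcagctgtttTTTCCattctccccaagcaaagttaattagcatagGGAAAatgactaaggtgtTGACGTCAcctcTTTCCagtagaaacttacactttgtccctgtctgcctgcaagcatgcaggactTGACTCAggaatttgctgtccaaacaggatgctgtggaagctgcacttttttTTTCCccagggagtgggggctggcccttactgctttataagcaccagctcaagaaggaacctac
PPP3R1 start 1: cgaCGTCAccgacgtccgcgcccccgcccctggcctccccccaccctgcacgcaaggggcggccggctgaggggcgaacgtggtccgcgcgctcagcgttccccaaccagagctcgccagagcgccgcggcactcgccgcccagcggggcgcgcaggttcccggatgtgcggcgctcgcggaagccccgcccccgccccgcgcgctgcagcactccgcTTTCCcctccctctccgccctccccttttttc

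The window before the fourth RCAN1 start held 4 matches to GGAAA, 1 to TGANTCA and 2 to TGACG, the last 2 overlapping in the palindrome TGACGTCA. At least 1 match to GGAAA was present in 55.6% of 35116 RefSeq promoter windows of the same length, and 4 or more in 1.87%. A match to TGANTCA was present in 6.57% of them, a match to TGACG in 21.2%, and all 3 motifs together in 0.504%. None of the other 5 RCAN1 windows held GGAAA. Starts 1, 2 and 3 of RCAN1 held 1 match to TGACG each, start 5 held 1 to TGANTCA, and start 6 held no match. Among the other genes, the RCAN2 windows held 2, the RCAN3 windows 2 and the PPP3R1 window 1 match to GGAAA in all. A match to these letters is a description of the reference sequence and not a measured binding site, and which starts the RCAN1 probe sets read was not analysed here.

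**Figure D1:**
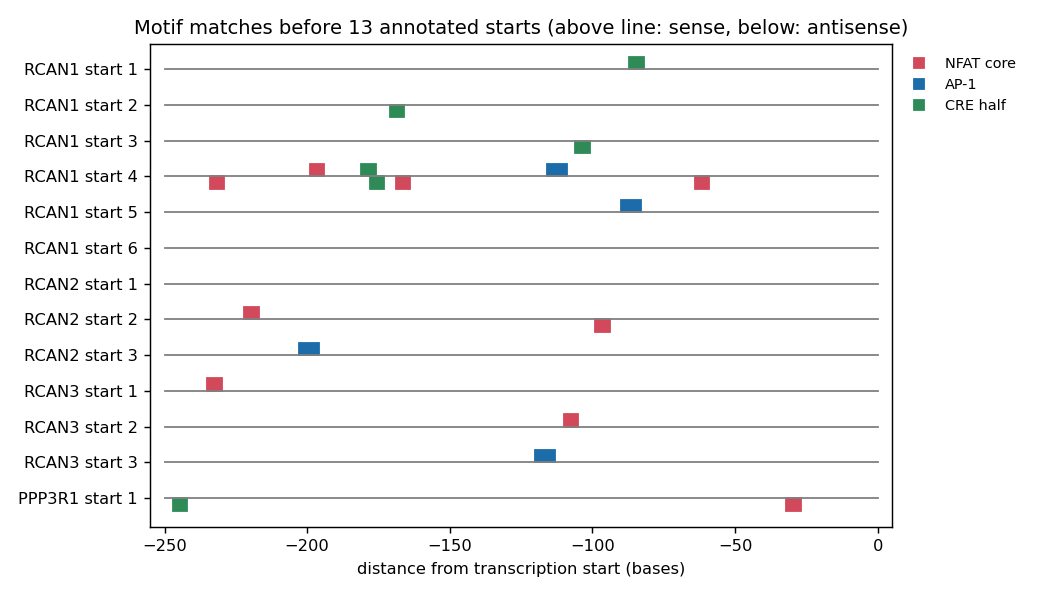
Motif matches in the 250 bases before 13 annotated starts of RCAN1, RCAN2, RCAN3 and PPP3R1, with the distance from the start in bases on the horizontal axis and 1 line per start. Boxes above a line are sense matches and boxes below it antisense matches to the NFAT core, AP-1 and CRE motifs; RCAN1 start 4 carries 7 boxes, 4 of them for the NFAT core.

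RCAN1 was higher in treated cells in each of the 4 lines in all 3 of its probe sets. In the brightest, 208370_s_at, the deposited signal in DMSO was 1551, 480, 4027 and 1396 units in ACHN, CAKI2, A498 and CAKI1. In treated cells it was 12539, 7787, 22352 and 8353 units in the same order. Every treated array lay above every DMSO array, and A498 was highest and CAKI2 lowest under both treatments. On the normalized log2(signal + 16) scale the level was 10.52 ± 1.26 in DMSO and 13.55 ± 0.79 in treated cells (SD, n = 4 lines). The log2 difference, A939572 minus DMSO, was 3.04 ± 0.67, or 8.20-fold. CAKI2, the line with the lowest DMSO level, had the largest difference at 3.98 (15.8-fold), followed by ACHN at 3.03 (8.17-fold), A498 at 2.61 (6.10-fold) and CAKI1 at 2.52 (5.73-fold). The SD over lines was thus smaller after treatment than before it, with 2 lines, CAKI2 and CAKI1, ending at 12.93 and 13.00.

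The second RCAN1 probe set, 215253_s_at, was also higher in treated cells, by another order of the lines. Its signal in DMSO was 254, 185, 396 and 200.4 units in ACHN, CAKI2, A498 and CAKI1, and in treated cells 769, 713, 3573 and 685 units. The treated arrays again all lay above the DMSO arrays, and treated A498 stood far above the other 3 treated lines. The log2 difference was 2.06 ± 0.74 (SD, n = 4 lines), with 3.16 in A498 (8.94-fold), 1.86 in CAKI2, 1.66 in CAKI1 and 1.56 in ACHN. A498 had the largest difference here and the third largest in the brightest probe set. Without A498 the difference was 1.71.

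The third, 215254_at, was dim, with 11.8 to 45.5 units in DMSO and 31.2 to 91.1 in treated cells. Its log2 difference was 0.66 ± 0.41, above 0 in 4 of 4 lines, from 0.19 in CAKI1 to 1.08 in A498. Its treated and DMSO arrays overlapped, and it lay below the filter on dim probe sets, a mean of 6.41 over the 8 arrays. At an offset of 64 in place of 16 its difference was 0.36, and at an offset of 1 it was 0.95, so its size follows the offset.

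**Figure D2:**
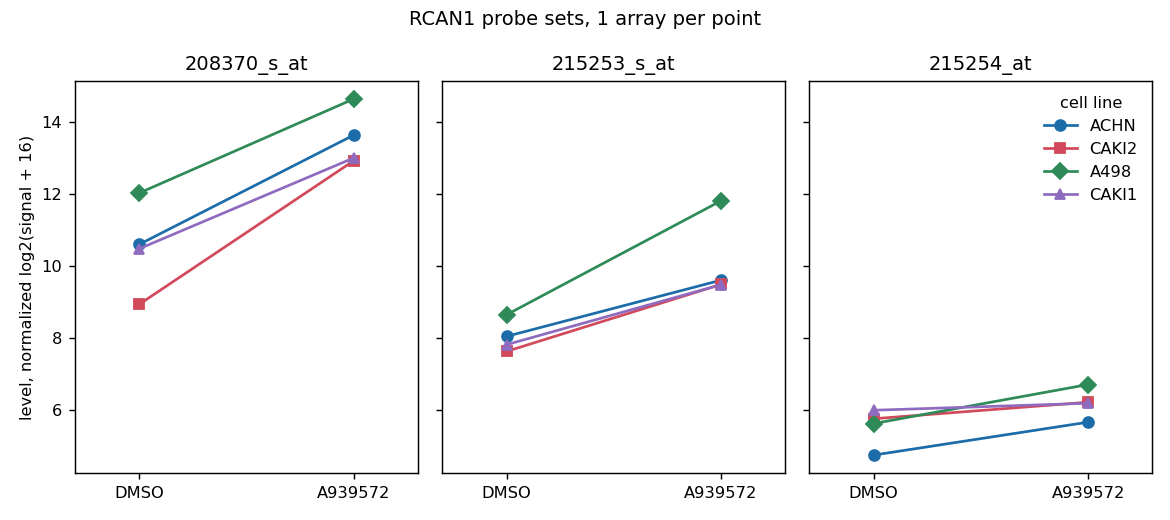
Normalized log2(signal + 16) levels of the 3 RCAN1 probe sets, 1 array per point, with DMSO and A939572 on the horizontal axis and a line joining the 2 arrays of each cell line. All 12 lines slope upward; A498 ends at 11.81 in 215253_s_at, where the other lines end between 9.49 and 9.61.

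Among all 27307 probe sets that passed the filter, the mean difference of 208370_s_at ranked 14th, and 215253_s_at ranked 62nd. Within single lines 208370_s_at ranked 8th in CAKI2, 34th in ACHN, 41st in A498 and 79th in CAKI1, while 215253_s_at ranked 16th in A498 and between 286th and 635th in the other lines. ACTB has control probe sets at its 3′ and 5′ ends, and their ratio, a sign of RNA or cDNA length, lay between 2.12 and 2.33 on the DMSO arrays and between 3.02 and 4.22 on the treated ones. The same ratio of GAPDH lay between 0.962 and 1.05 on the former and between 1.01 and 1.11 on the latter. The part of these ratios in the RCAN1 values was not tested. The 2 bright RCAN1 probe sets changed little with the scaling, with differences of 3.09 and 2.14 under median centring.

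Among 12088 other genes, the 5 whose differences in the 4 lines were nearest to those of 208370_s_at were DDIT3, ZNF474, FOS, DNAJB9 and GEM. Likeness was the root mean square distance between the 4 log2 differences, taking the brightest probe set of each tested gene. DDIT3, which encodes the stress-induced transcription factor CHOP, was nearest at 0.29, with log2 differences of 2.86, 3.85, 2.27 and 2.94 in ACHN, CAKI2, A498 and CAKI1. ZNF474 followed at 0.38, FOS, a subunit of AP-1, at 0.51, DNAJB9, a cochaperone of the endoplasmic reticulum, at 0.60 and GEM, a small GTP-binding protein, at 0.64. In DMSO, ZNF474 had only 10.2 to 49.4 units and FOS 4.54 to 14.7, and both passed the filter only through the treated arrays. The offset of 16 therefore bears on the size of their differences and on their distances. The largest of the 4 differences was that of CAKI2 in DDIT3, ZNF474 and FOS, at 3.85, 3.34 and 4.36. It was so in 208370_s_at too, but not in 215253_s_at, where A498 had the largest. The genes were picked by their nearness to 208370_s_at, so a shared order of lines follows from the choice. In DNAJB9 and GEM the largest was that of ACHN, at 3.51 and 3.04. These distances describe 4 lines and draw on the same control arrays.

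RCAN2 and RCAN3, the paralogs of RCAN1, had no difference of 1 sign in all 4 lines in any probe set. The RCAN2 probe set 203498_at was dim on all arrays, with 16.4 to 49.2 units in DMSO and 15.9 to 53.2 in treated cells. Its log2 difference was 0.12 ± 0.83 (SD, n = 4 lines), from -0.89 in CAKI2 to 1.01 in A498, with 2 lines above 0 and 2 below, so the spread between lines exceeded the mean. RCAN3 was measured above the filter in 1 of its 3 probe sets, 226272_at. There the signal in DMSO was 56.9, 274, 368 and 12.7 units in ACHN, CAKI2, A498 and CAKI1, and in treated cells 62.3, 133, 245 and 2.58 units. The treated and DMSO arrays overlapped widely, because the lines differed more than the treatments. The log2 difference was -0.48 ± 0.52, below 0 in 3 of 4 lines and 0.26 in ACHN. Its 2 dim probe sets had -0.68 ± 1.02 (229064_s_at) and 0.14 ± 0.66 (219864_s_at). The value of 229064_s_at came mostly from CAKI2, which had -2.15, and without CAKI2 it was -0.19.

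The catalytic subunit gene PPP3CA had differences near 0 in each of its 3 probe sets. The signal of 202429_s_at, the brightest, in DMSO was 2951, 1626, 2918 and 3294 units in ACHN, CAKI2, A498 and CAKI1, and 3245, 1507, 2770 and 3146 in the same order in treated cells. Its log2 difference was -0.06 ± 0.11 (SD, n = 4 lines), which changed sign to 0.05 with median centring. For 202457_s_at the difference was 0.03 ± 0.02, with 0.01 to 0.05 over the lines, and for 202425_x_at 0.02 ± 0.24, with -0.34 in CAKI1 and 0.11 to 0.18 in the other 3. With median centring these 2 were 0.14 and 0.13. Over the 3 probe sets and 4 lines the differences ran from -0.34 to 0.18, and the treated and DMSO arrays overlapped in all 3.

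PPP3CB, the other catalytic subunit gene, varied more between lines. In 202432_at the signal in DMSO was 1867, 393, 1314 and 2675 units in ACHN, CAKI2, A498 and CAKI1, and 2118, 882, 1045 and 2828 in treated cells. CAKI2 was lowest under both treatments and had the largest difference, 1.14, against 0.17 in ACHN, -0.38 in A498 and 0.07 in CAKI1. The mean log2 difference was 0.25 ± 0.64, and -0.05 without CAKI2. In 209817_at the difference was 0.03 ± 0.37, again highest in CAKI2 at 0.42 and lowest in ACHN at -0.48.

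The 2 probe sets of PPP3R1, the gene of the calcium-binding subunit, disagreed. In 204507_s_at the signal in DMSO was 1124, 627, 974 and 866 units in ACHN, CAKI2, A498 and CAKI1, and 1626, 1060, 1217 and 1170 in treated cells. Each line was higher after treatment, by 0.29 in A498, 0.40 in CAKI1, 0.52 in ACHN and 0.73 in CAKI2, a mean log2 difference of 0.49 ± 0.19 or 1.40-fold, although the 2 groups overlapped because of the low level of CAKI2. In 204506_at the difference was 0.00 ± 0.19, with -0.28 in A498 and 0.04 to 0.13 in the other lines. Which transcripts the 2 probe sets read was not analysed here.

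Of the 14 probe sets, 10 passed the filter on dim signals. Past the threshold of 0.05 in limma (adjusted p, Benjamini-Hochberg over all probe sets) were 3 of these 10, all higher. Among all tested probe sets 13.0% were called higher and 13.0% lower, or 26.0% either way. The genes were chosen with this contrast known, so nothing is read from that count. Of the calls over all probe sets 50.0% were higher, and with median centring 60.4%. In 2 of the 10 the treated arrays all lay above the DMSO arrays, which held for 4.55% of all tested. Of all 14 probe sets 5 were higher in 4 of 4 lines, the fifth being PPP3CA 202457_s_at with its mean of 0.03. Of the 10 that were tested 4 were so, which held for 22.0% of all tested. None of the 14 was lower in 4 of 4 lines, as 22.6% of all tested were, and in none did the treated arrays all lie below the DMSO arrays, as in 4.34% of all tested.

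**Figure D3:**
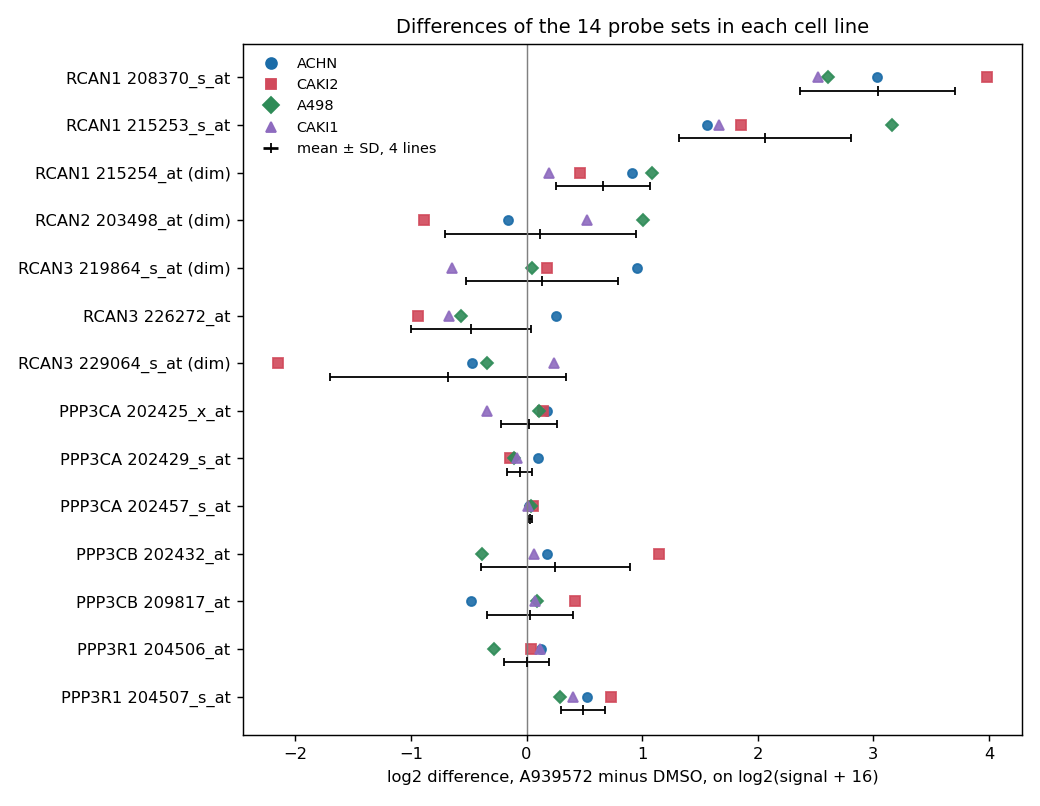
Log2 differences, A939572 minus DMSO on log2(signal + 16), of the 14 probe sets, with 1 symbol per cell line and the mean ± SD over 4 lines as a black bar; "dim" marks the 4 probe sets below the filter. The 2 bright RCAN1 probe sets lie at 1.56 and above in every line, while the 7 probe sets of the catalytic and regulatory subunits lie between -0.48 and 1.14.

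The lines themselves differed in these genes, compared here by their levels averaged over both treatments. A limma F-test of the 3 cell line terms, with treatment in the fit, passed the threshold in 9 of the 10 tested probe sets, where 54.0% of all tested probe sets passed. RCAN3 is among the 9 and is taken up last, since its filter was met through some lines only. The spread in this test comes from the 2 arrays of each line and, through eBayes, from the other probe sets. CAKI2 had the lowest mean level of the 4 lines in every tested probe set but that of RCAN3. Several of these probe sets belong to the same gene. In what share of all tested probe sets CAKI2 was lowest was not computed, so nothing is read from this. In 6 of the 10 both CAKI2 arrays lay below all 6 arrays of the other lines, a pattern picked out after its values were seen, which held for 9.95% of all tested probe sets.

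PPP3CA showed this most plainly. The mean levels of 202457_s_at over the 2 arrays of a line were 11.61 in ACHN, 11.30 in A498, 11.27 in CAKI1 and 10.58 in CAKI2 (limma F-test adjusted p = 0.00268). ACHN, A498 and CAKI1 did not differ from each other past the threshold, with pairwise limma adjusted p = 0.145 to 0.922. CAKI2 was lower than each, the nearest being CAKI1, where CAKI2 minus CAKI1 was -0.69 (adjusted p = 0.0100). The other 2 PPP3CA probe sets gave the same partition, CAKI2 minus CAKI1 being -0.99 (adjusted p = 0.00175) in 202429_s_at and -0.56 (0.0464) in 202425_x_at. Without CAKI2 none of the 3 passed the F-test, with adjusted p = 0.199, 0.727 and 0.453 in the order of naming.

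PPP3CB had a wider range. The mean levels of 202432_at were 11.42 in CAKI1, 10.95 in ACHN, 10.21 in A498 and 9.23 in CAKI2 (limma F-test adjusted p = 0.00120). Neighbours in this order differed past the threshold only between A498 and CAKI2, where CAKI2 minus A498 was -0.98 (adjusted p = 0.0372), while ACHN minus CAKI1 was -0.46 (0.291) and ACHN minus A498 0.75 (0.0955). In 209817_at the order was the same, at 11.09, 10.45, 9.49 and 8.96 (F-test adjusted p = 0.000236). There ACHN was above A498 by 0.96 (adjusted p = 0.0128), and the steps from CAKI1 to ACHN (-0.64, 0.0635) and from A498 to CAKI2 (-0.53, 0.117) did not pass.

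PPP3R1 differed least between lines. In 204506_at the levels ran from 10.18 in CAKI1 over 10.01 in A498 and 9.93 in ACHN to 9.45 in CAKI2 (limma F-test adjusted p = 0.0417), no neighbours in that order differed past the threshold, and the call was lost without CAKI2 (0.565) or CAKI1 (0.0909), with no variance trend (0.0754) and with no filter (0.0503). In 204507_s_at they ran from 10.41 in ACHN to 9.69 in CAKI2 (F-test adjusted p = 0.0527). The test passed with no normalization between arrays (0.0416), median centring (0.0387), the upper quartile filter (0.0359) and 1 probe set per gene (0.0466). It also passed without A498 (0.0468) or CAKI1 (0.0473). It did not pass without ACHN (0.240) or CAKI2 (0.229), with no variance trend (0.0928), with no filter (0.0619) or at the other offsets (0.0506 and 0.0552).

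For RCAN1 the order of the lines was A498, ACHN, CAKI1 and CAKI2 in both bright probe sets. In 208370_s_at the mean levels over both treatments were 13.34, 12.12, 11.75 and 10.94 (limma F-test adjusted p = 0.000841). A498 stood above ACHN, ACHN minus A498 being -1.21 (adjusted p = 0.0139), whereas ACHN minus CAKI1 was 0.38 (0.384) and CAKI2 minus CAKI1 -0.81 (0.0702). In 215253_s_at A498 lay above each other line. The nearest was ACHN, where ACHN minus A498 was -1.40 (adjusted p = 0.0149), and A498 lay 1.58 above CAKI1 (0.00853). Treated A498 carried most of this, at 11.81 against 9.49 to 9.61 in the other treated lines, while in DMSO A498 had 8.65 against 7.63 to 8.05, so the mean over treatments holds the line's own response to the drug. The other 3 lines did not differ from each other past the threshold (0.613 to 0.876). The F-test of that probe set had an adjusted p = 0.00810, and 0.579 without A498. The mean levels of RCAN3 226272_at were 8.26 in A498, 7.68 in CAKI2, 6.26 in ACHN and 4.56 in CAKI1 (limma adjusted p = 0.000216, and 0.000870 with no filter). This probe set passed the filter of 6.41 only through the lines where it was high, ACHN and CAKI1 being below it, and without CAKI2 or A498 it was not tested. A probe set that passes in this way had to differ between lines, so its p-values are given as a description. In that order A498 and CAKI2 did not differ past the threshold (0.310), and ACHN was below CAKI2 (0.0232) and above CAKI1 (0.0107).

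**Figure D4:**
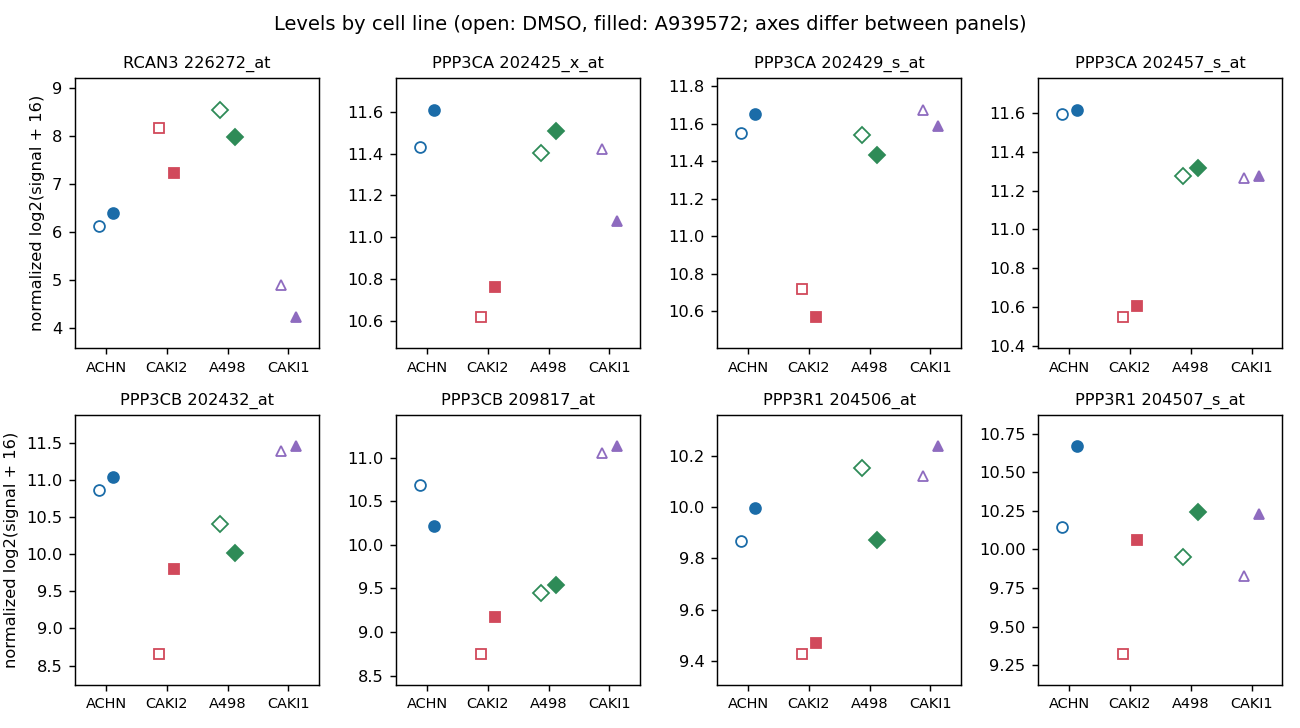
Normalized log2(signal + 16) levels by cell line of the 8 tested probe sets other than those of RCAN1, with open symbols for DMSO and filled ones for A939572, 1 array per symbol; vertical axes differ between panels. CAKI2 is the lowest line in the mean of its 2 arrays in the 7 subunit panels, for example 10.58 in PPP3CA 202457_s_at against 11.27 to 11.61 in the other lines.

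Other genes of the calcineurin pathway were read from lists of 44 genes, none of them among the 6, each by its brightest probe set. The lists were chosen with earlier results of these data known, so their counts and p-values are given as a description. Of these 44, 39 had a probe set with 1 symbol in the annotation used, and 31 passed the filter. Of these 31, 9 rose and 2 fell (limma adjusted p, Benjamini-Hochberg over all probe sets). The median log2 difference of the 31 was -0.03, against -0.03 with 1 probe set per gene and -0.01 over all probe sets tested. Among the brightest probe sets of all tested genes 14.4% were called higher and 15.7% lower. The same arrays carry the higher ACTB ratio given above, and its part in these values was not tested.

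Of the NFAT factors, most of which calcineurin dephosphorylates, 3 of 4 tested rose and 0 fell, NFATC2, NFATC1 and NFAT5, with a list median of 0.83. The count of 0 was also 0 at an unadjusted p under 0.05. NFATC2 in DMSO had log2 levels of 8.12, 7.24, 7.23 and 4.67 in ACHN, CAKI2, A498 and CAKI1, and in treated cells 9.10, 9.01, 9.48 and 5.95. Each line was higher, but the groups overlapped because CAKI1 was low under both treatments. The difference was 1.57 ± 0.56 (adjusted p = 0.00150), and the next probe set gave 1.15 ± 0.55 (0.00705). NFAT5, a factor of the osmotic stress response that calcineurin does not bind as it does the other NFAT factors, rose by 0.78 ± 0.50 (adjusted p = 0.00931), from 0.09 in CAKI2 to 1.24 in A498. NFATC1 rose by 0.88 ± 0.43 (adjusted p = 0.0101) in its brightest probe set, but the next had -0.44 ± 0.13 (0.0971), below 0 in 4 of 4 lines, so its direction depends on the probe set. NFATC3 had -0.15 ± 0.11 (adjusted p = 0.457).

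Of the kinases that return phosphate to NFAT and so oppose calcineurin, 2 of 5 tested rose and 0 fell, also 0 at an unadjusted p under 0.05. DYRK1A rose by 0.70 ± 0.16 (limma adjusted p = 0.00190), with 0.50 to 0.86 over the lines, in the only 1 of its 5 probe sets that passed the filter. CSNK1A1, a casein kinase, rose by 0.36 ± 0.24 (adjusted p = 0.0364), a call lost without ACHN (0.167), CAKI2 (0.0696) or CAKI1 (0.0849). It was also lost under both other scalings (0.102 with no normalization between arrays, 0.0531 with median centring), with no variance trend (0.135) and with no filter (0.104). Of its 12 tested probe sets 7 passed, all higher. GSK3A and GSK3B had -0.07 ± 0.17 and 0.02 ± 0.31.

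Of 6 tested proteins that bind calcineurin, its inhibiting drugs or NFAT, 0 passed in either direction in limma, with 0 higher and 1 lower at an unadjusted p under 0.05. That gene was PPIA, the receptor of cyclosporin, at -0.20 ± 0.05 (adjusted p = 0.0728), below 0 in 4 of 4 lines after quantile normalization. In the deposited signals CAKI1 went the other way, from 37890 units in DMSO to 38390 in treated cells, while the other 3 lines were lower. Of 9 genes of calcium stores and entry 1 rose and 1 fell. ATP2A2, the pump that fills the endoplasmic reticulum with calcium, rose by 0.52 ± 0.19 (adjusted p = 0.00992) with every treated array above every DMSO array, but its next probe set had 0.01 ± 0.33. ITPR3, a channel that releases calcium from that store, fell by 0.52 ± 0.33 on the log2 scale (adjusted p = 0.0282), a call lost without ACHN (0.126), CAKI2 (0.0540) or CAKI1 (0.0732), with median centring (0.0608) and with no variance trend (0.0720).

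Of 6 other tested substrates of calcineurin, or factors it activates, 2 rose and 1 fell. MEF2A, a transcription factor, rose by 1.04 ± 0.40 (limma adjusted p = 0.00179), and by 1.41 ± 0.28 and 1.34 ± 0.69 in its next 2 probe sets, while its dimmest had 0.18 ± 0.24. CRTC2, a coactivator, rose by 0.55 ± 0.20 (adjusted p = 0.0347), a call lost without any 1 of the 4 lines (0.0537 to 0.117) and with no filter (0.0804). DNM1L, the dynamin of mitochondrial division, fell by 0.44 ± 0.18 (adjusted p = 0.0178), a call lost without ACHN (0.0916) or A498 (0.0508) and with no variance trend (0.0684). The list of transcripts known to respond to NFAT held only 7 genes, of which 5 had a probe set with 1 symbol. Of these only PTGS2, the gene of cyclooxygenase-2, passed the filter. Its log2 levels in DMSO were 6.90, 6.42, 7.38 and 7.54 in ACHN, CAKI2, A498 and CAKI1, and 8.26, 9.66, 9.92 and 10.85 in treated cells, with no overlap. It rose by 2.61 ± 0.90 (adjusted p = 0.000416). Its other probe set had 2.16 ± 0.79, but with DMSO levels of 5.75 to 6.21, under the filter of 6.41. That probe set passed the filter only through the treated arrays, so its difference is given as a description. TNF, IL2, FASLG and NR4A1 were below the filter.

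**Figure D5:**
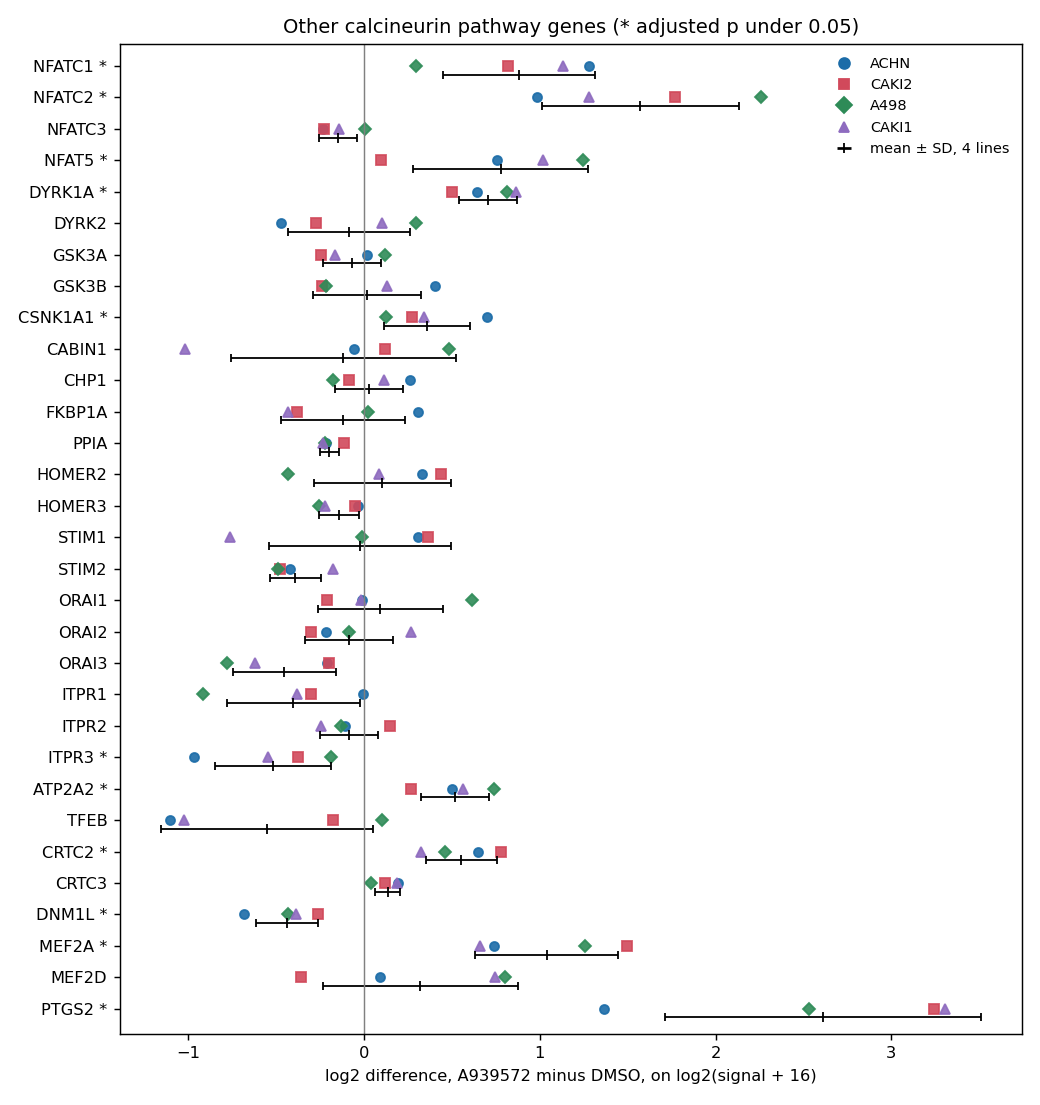
Log2 differences, A939572 minus DMSO on log2(signal + 16), of the 31 tested pathway genes in list order, with 1 symbol per cell line, the mean ± SD over 4 lines as a black bar, and an asterisk where the limma adjusted p was under 0.05. PTGS2, NFATC2 and MEF2A have the highest means, at 2.61, 1.57 and 1.04.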

How the data were processed

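The deposited values are intensity signals on a linear scale, 1 per probe set, which the authors had scaled to a common level: the mean after trimming 2% at each end was 500.067 to 500.073 on the 8 arrays. The summarization program is not given in the sources used here. Per the labels' protocols, 100 ng of total RNA was made into biotin-labelled cRNA. Median signals were 68.6 to 84.2 units.

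Signals were taken as log2(signal + 16), an offset that understates changes of dim genes, and quantile normalized without 62 control probe sets. Names came from the platform annotation where it gave 1 symbol (41091 probe sets), updated through the Entrez ID to GRCh38.p14 (41037). Probe sets at or above the median mean level (6.41) were tested, 27307 in all, each apart. An x_at or s_at probe set can match related transcripts.

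The fit used limma's lmFit and eBayes with a variance trend (limma 3.58.1, R 4.3.3), Benjamini-Hochberg adjustment at 0.05 and the cell line as a block, since the submitters set each treated array against the DMSO array of its line. Deviations from the treatment means, taken across probe sets, correlated at 0.775 to 0.828 within a line and at no more than -0.0280 between lines. Subtracting the treatment means pushes the correlations between lines below 0, so their sign is not read as support for the pairing. The same fit gave the tests between lines, 2-sided for the 6 pairs. P-values of this fit rest on the spread left after the line and treatment terms, which eBayes draws toward a trend over all probe sets. With 1 array per line and treatment, a probe set's own part of it is how the difference between treatments varied over these lines. The total degrees of freedom were 9.85, most of them borrowed from other probe sets. The p-values are therefore not a measure of the spread over the 4 lines alone. The fit was tested on simulated data. The median SE of a log2 difference was 0.18. All errors are SDs over 4 lines.

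The 6 genes and the pathway lists were chosen with earlier results of these data known. Named were all probe sets of the 6 genes, up to 3 genes of each list past the threshold with the largest change (where none passed, the 1 with the smallest p), and the 5 genes nearest to RCAN1. NFATC3, GSK3A and GSK3B were named after their values were seen. Alternatives changed the scaling, offset, block, variance trend, filter, choice of probe sets and the lines included.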

Additional observations from a re-analysis of the deposited data

Results flagged for a closer look

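In groups of 4 arrays, 1 value can stand apart by Dixon's test, which chance flags in about 1 of 20 groups, and 9 of 78 groups checked here were flagged. In RCAN1 215253_s_at treated A498 had a log2 level of 11.81, with the next line at 9.61. In DMSO, CAKI2 stood below the other lines in PPP3CA 202425_x_at, at 10.62 against 11.40 in the next, and in PPP3CA 202429_s_at, at 10.72 against 11.54. In PPP3CA 202425_x_at the difference in CAKI1, -0.34, was apart from the nearest, 0.11.

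Among the pathway genes, treated CAKI1 had the lowest NFATC2 level at 5.95, with the next at 9.01. In DMSO, NFAT5 was lowest in A498 at 11.01, ITPR3 lowest in CAKI1 at 10.55 and ATP2A2 highest in CAKI2 at 11.88. The PPIA difference in CAKI2 was -0.12, with the nearest at -0.22.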

How the results depend on the processing

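Without the cell line as a block (no replicate block), limma called 56 probe sets higher and 38 lower in place of 3545 and 3543. It then called 0 pathway genes higher and 0 lower, with 6 and 0 at an unadjusted p under 0.05. With 1 probe set per gene 1778 were higher and 1928 lower, and without probe sets ending in s_at, x_at or a_at 2056 and 1861, from fewer probe sets tested. In place of 9 pathway genes higher, the upper quartile filter gave 5, and in place of 2 lower it gave 4. Median centring gave 1 lower, the fit without a variance trend 0 (4 at an unadjusted p under 0.05) and the fit without multiple-match probe sets 1. With a line left out, 7 to 8 pathway genes were higher and 0 to 1 lower, the 0 coming without ACHN (4 at an unadjusted p under 0.05), and 2368 to 2832 probe sets were lower and 2383 to 2881 higher.

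For the 14 probe sets of the 6 genes, those higher in every line numbered 5 under both other scalings and both other offsets, and 5 to 7 with a line left out. Those lower in every line numbered 0, and 0 to 2 with a line left out. With a line left out fewer lines have to agree, so both counts are easier to reach. RCAN1 208370_s_at had 2.72 to 3.19 and 215253_s_at 1.71 to 2.22 with a line left out. The F-test between lines passed in 4 to 9 probe sets with a line left out, the 4 coming without CAKI2, in 5 with 1 probe set per gene and in 4 without multiple-match probe sets, where fewer were tested. Dim probe sets, 4 of the 14, have no reliable size: RCAN1 215254_at ran from 0.36 to 0.95 over the offsets. No called pathway gene changed direction in the alternatives that gave it a value. NFATC1, DYRK1A and ITPR3 had none without multiple-match probe sets, NFATC1, NFATC2, CRTC2 and PTGS2 none under the upper quartile filter, and NFATC1 differs in sign between its probe sets. The causes of these shifts were not tested.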
